A study of Mus musculus with 2 samples.

Results

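This is a description of 10 genes of amino acid use, *Arg1*, *Arg2*, *Nos2*, *Slc7a2*, *Odc1*, *Sat1*, *Ass1*, *Ido1*, *Il4i1* and *Kynu*, in myeloid cells sorted from mouse colorectal polyps. They were taken by name from the 32285 genes counted, and all 10 were found in both libraries. The genes serve 2 uses of amino acids by which myeloid cells of tumors are known to restrain T cells, the use of arginine and the breakdown of tryptophan. Both libraries came from C57BL6/J mice, aged 26 weeks, that had received the mutagen azoxymethane (AOM) and 3 cycles of 1% dextran sulfate sodium (DSS) in drinking water over 16 weeks. In one library cells of wild-type (WT) mice were pooled, and in the other cells of *Clec7a*-/- mice, which lack Dectin-1, a receptor for fungal and other β-glucans, in all tissues. CD11b+ and CD11c+ cells were sorted, and RNA was counted as unique molecular identifiers (UMIs) by single-cell RNA-seq. There was 1 library per genotype, so no difference between genotypes could be tested. Every interval of a level or a ratio is a 95% interval for counting error only. It leaves out the variation between cells, between mice and between library preparations. The 95% intervals of shares of cells are binomial over cells and leave out the variation between mice and between library preparations. Genotype, pool and library cannot be told apart, and neither can fewer cells of a type and less RNA per cell where all cells of a library are summed.

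Arginine enters myeloid cells through cationic amino acid transporters such as the one encoded by *Slc7a2*. There it is used either by the inducible nitric oxide synthase, encoded by *Nos2*, which gives nitric oxide and citrulline, or by the arginases, encoded by *Arg1* (cytosolic) and *Arg2* (mitochondrial), which give ornithine and urea. *Ass1* encodes argininosuccinate synthase, which takes part in making arginine again from citrulline. *Odc1* encodes ornithine decarboxylase, which turns ornithine into the first polyamine, and *Sat1* encodes the acetyltransferase that marks polyamines for breakdown or export. *Ido1* encodes an enzyme that opens the ring of tryptophan on the way to kynurenine. *Kynu* encodes kynureninase, which acts on kynurenine and its products, and *Il4i1* encodes a secreted amino acid oxidase that acts on phenylalanine and tryptophan. Kynurenine and products of the oxidase are ligands of the aryl hydrocarbon receptor.

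Of the barcodes, 2696 of 3467 in the WT library and 1999 of 3080 in the *Clec7a*-/- library passed the filter and were kept, with 12283285 and 7559096 UMIs in all and medians of 3412.5 and 2671 UMIs a cell. The libraries shared 17 barcode sequences, of which 6 were kept in both. *Clec7a* was not analysed here, so the genotype labels were not checked on it. The cells were divided into 15 clusters, at the lowest resolution tried that gave at least 15. The clusters were drawn without the 10 genes and without the other genes of their pathways, and 9 clusters entered 4 classes named from marker genes. The neutrophil-like class held 678 WT and 404 *Clec7a*-/- cells, the monocyte-like class 656 and 471, the macrophage-like class 538 and 298, and the dendritic cell (DC)-like class 363 and 566. In the DC-like class this was 13.5% of the WT cells and 28.3% of the *Clec7a*-/- cells. The neutrophil-like class differed in its parts. Cluster 1, led by *Ngp*, *Ly6g* and *Retnlg*, held 72.9% of its WT cells, whereas cluster 2, led by *Prok2*, held 79.5% of its *Clec7a*-/- cells. Cluster 2 was shallow, with medians of 1155.5 and 915 UMIs, and had none of the neutrophil markers among its 10 leading genes, although 10 of 14 were raised in it. Cluster 5 (337 WT and 81 *Clec7a*-/- cells) had raised markers of both neutrophils (9 of 14) and monocytes (5 of 11) and is called mixed. The sort did not exclude all other cells, since 67 WT and 120 *Clec7a*-/- cells were T-cell-like. In them *Itgam*, which encodes CD11b, was at 97.1 and 59.7 CPM (UMIs of the gene per 1000000 UMIs of all genes). *Itgax*, which encodes CD11c, was at 148 and 124 CPM in them. In the DC-like class *Itgam* was at 43.7 and 20.2 CPM. Whether the T-cell-like cells carried either sorting protein was not tested.

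The 10 genes differed in where they were highest. Taking both libraries together and comparing the 4 classes, *Arg1* was highest in the monocyte-like class, at 3.92 times the level in all other cells. *Arg2*, *Nos2* and *Sat1* were highest in the neutrophil-like class, at 5.06, 4.15 and 1.56 times the level elsewhere. *Slc7a2* was highest in the macrophage-like class, at 7.41 times. The other 5 genes were highest in the DC-like class, *Odc1* (which was higher still in the T-cell-like cells) at 2.17 times, *Ass1* at 2.23 times, *Kynu* at 6.77 times, *Il4i1* at 23.4 times and *Ido1* at 89.4 times. These are ratios of CPM, that is, of the UMIs of a gene summed over the cells of a class and divided by all their UMIs. The genes of tryptophan breakdown were thus highest in DC-like cells and the arginases in monocyte-like and neutrophil-like cells. The map of levels by cluster shows that clusters of the same class differed for some genes, such as *Ido1* within the DC-like class.

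**Figure D1:**
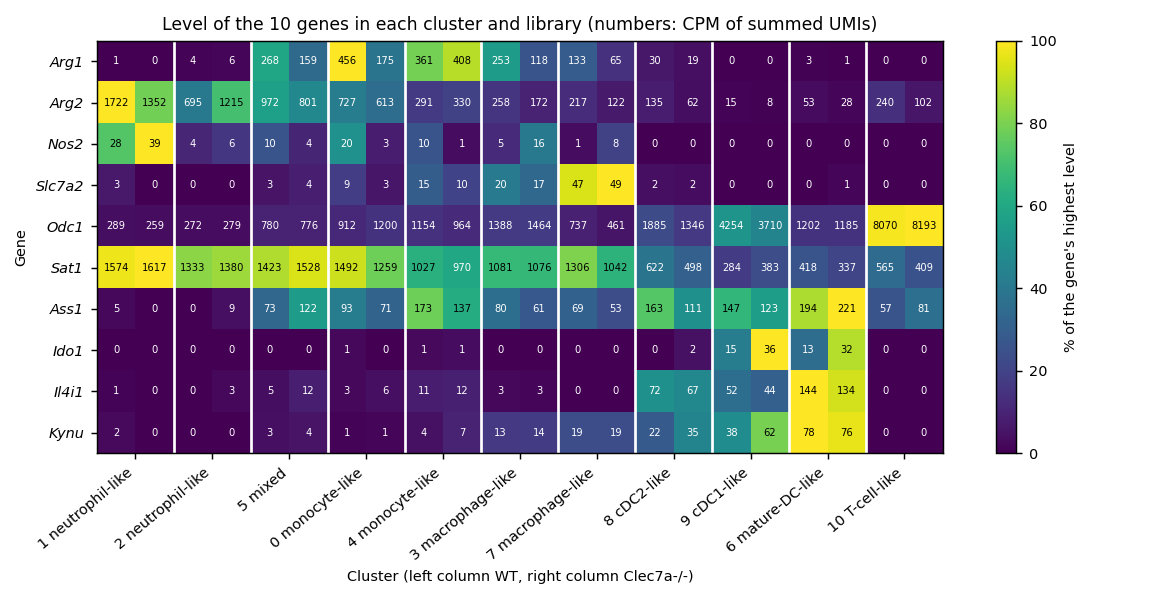
Level of each of the 10 genes (rows) in the 11 clusters with at least 30 cells in each library (columns, WT left and *Clec7a*-/- right). Numbers are CPM of summed UMIs and colors give the percent of the gene's own highest level, so colors are not compared between rows. *Arg2* and *Nos2* peak in neutrophil-like cluster 1, *Slc7a2* in macrophage-like cluster 7, *Odc1* in T-cell-like cluster 10, and *Il4i1* and *Kynu* in mature-DC-like cluster 6.

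*Arg1* was carried by a minority of monocyte-like, macrophage-like and mixed cells and was lower in most of them in *Clec7a*-/- cells. In the monocyte-like class its level was 411 CPM (95% interval 386 to 438) in WT cells and 301 CPM (274 to 330) in *Clec7a*-/- cells. In the macrophage-like class it was 191 CPM (178 to 205) in WT cells and 93.6 CPM (80.6 to 108) in *Clec7a*-/- cells. The log2 ratio of *Clec7a*-/- over WT was -0.45 (-0.62 to -0.29) in the monocyte-like class and -1.03 (-1.27 to -0.80) in the macrophage-like class, and the intervals of the 2 libraries did not overlap in either class. Under the other filters, clusterings and scalings the ratio in the macrophage-like class ran from -1.24 to -0.78, so it was not past 2-fold in all of them. The mixed cluster had 268 CPM in WT and 159 CPM in *Clec7a*-/- cells. Outside these cells *Arg1* was almost absent, with 2 UMIs in the neutrophil-like class of each library, 17 WT and 12 *Clec7a*-/- UMIs in the DC-like class and 0 in T-cell-like cells.

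The 2 monocyte-like clusters differed in *Arg1*. Cluster 0, led by *F13a1*, *Ly6c2* and *Chil3*, genes of inflammatory monocytes, had 456 CPM (419 to 495) in WT cells and 175 CPM (145 to 210) in *Clec7a*-/- cells, and the log2 ratio was -1.38 (-1.68 to -1.09). Cluster 4, led by *Ccl24*, *Pla1a* and *Mmp19*, had 361 CPM (327 to 398) and 408 CPM (365 to 454), a log2 ratio of 0.18 (-0.04 to 0.39). In the first cluster the libraries were far apart, and in the second their intervals overlapped. Whether the 2 ratios differ beyond the variation between mice was not tested. Both macrophage-like clusters had less *Arg1* in *Clec7a*-/- cells, with 253 against 118 CPM in cluster 3 and 133 against 64.8 CPM in cluster 7. Cluster 4 rests on 4 of 11 monocyte markers, 3 of them taken from earlier results of these data. *Arg1* was among its 10 leading genes although the clusters were drawn without it.

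*Arg1* was unevenly spread over cells. The 5% of cells with most *Arg1* held 69.1% of its UMIs in WT and 85.6% in *Clec7a*-/- cells, and single cells reached 59 and 48 UMIs. By contrast, the same share of cells held 22.4% and 29.5% of the *Arg2* UMIs. To compare shares of cells at equal depth, each cell was thinned to 1000 UMIs, and 186 WT and 307 *Clec7a*-/- cells below that were left out. *Arg1* was then seen in 144 of 614 WT monocyte-like cells (23.5%, 20.2 to 27.0) and in 56 of 441 *Clec7a*-/- ones (12.7%, 9.74 to 16.2). Without thinning the shares were 34.3% and 25.1%. In cluster 0 the thinned shares were 25.1% and 9.16%, and in cluster 4 they were 20.8% and 17.4%. Thinned to 2000 UMIs the gap was smaller, 27.7% (23.9 to 31.8) and 20.8% (16.6 to 25.6) in the class, whose intervals overlapped, 28.2% (23.3 to 33.6) and 16.2% (10.9 to 22.6) in cluster 0, and 27.0% and 25.4% in cluster 4. None of 56 WT and 90 *Clec7a*-/- T-cell-like cells showed an *Arg1* UMI, which allows shares of up to 5.36% and 3.33%. *Arg1* and *Arg2* UMIs were also met in the same monocyte-like cells. Of the WT monocyte-like cells with an *Arg1* UMI, 47.2% also had one of *Arg2*, against 37.7% of those without, and in the *Clec7a*-/- library these were 41.1% and 34.6%.

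*Arg2* was the arginase of the neutrophil-like cells and, unlike *Arg1*, was found in most cells of its class. Its level there was 1580 CPM (1521 to 1640) in WT cells and 1259 CPM (1160 to 1363) in *Clec7a*-/- cells, and the log2 ratio was -0.33 (-0.46 to -0.20). The mixed cluster followed with 972 and 801 CPM, then the monocyte-like class with 521 (492 to 551) and 460 CPM (426 to 496), the macrophage-like class with 237 and 149 CPM and the DC-like class with 61.5 and 27.3 CPM. Each class was separated from the next by more than its counting interval in both libraries. Thinned to 1000 UMIs 73.8% of 604 WT and 71.1% of 218 *Clec7a*-/- neutrophil-like cells had an *Arg2* UMI, and these intervals overlapped (70.1 to 77.3 and 64.6 to 77.0). In this class 74 WT and 186 *Clec7a*-/- cells were too shallow and were left out. Thinned to 2000 UMIs they did not, with 93.6% (91.1 to 95.5) of 513 WT and 77.8% (60.8 to 89.9) of 36 *Clec7a*-/- cells. Without thinning they were 83.0% and 67.1%, with median depths of 2508.5 and 1051 UMIs.

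The class values hid opposite ratios in its 2 clusters. In cluster 1, which held most WT cells, *Arg2* was at 1722 CPM in WT and 1352 CPM in *Clec7a*-/- cells, and the log2 ratio was -0.35 (-0.56 to -0.15). In cluster 2, which held most *Clec7a*-/- cells, it was at 695 CPM (595 to 809) in WT and 1215 CPM (1098 to 1340) in *Clec7a*-/- cells, and the log2 ratio was 0.80 (0.54 to 1.07). Thinned to 1000 UMIs, 44.6% of 112 WT cells and 67.2% of 137 *Clec7a*-/- cells of cluster 2 had an *Arg2* UMI, with 72 and 184 shallower cells left out. Thinned to 2000 the order was reversed, 78.8% of 33 and 66.7% of 9 cells, but few cells were that deep and the intervals overlapped (61.1 to 91.0 and 29.9 to 92.5). *S100a9*, a neutrophil marker gene, also differed within cluster 2, at 4806 CPM in WT and 10093 CPM in *Clec7a*-/- cells. Set against *S100a9*, cluster 2 had 14.5 *Arg2* UMIs per 100 *S100a9* UMIs in WT and 12.0 in *Clec7a*-/- cells, so *Arg2* was not higher relative to *S100a9*. The part of the *S100a9* difference in the *Arg2* value was not tested. The log2 ratio of 0.18 (-0.06 to 0.42) in monocyte-like cluster 4 was the other positive one among the clusters with 100 *Arg2* UMIs or more, and it did not exceed counting error.

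**Figure D2:**
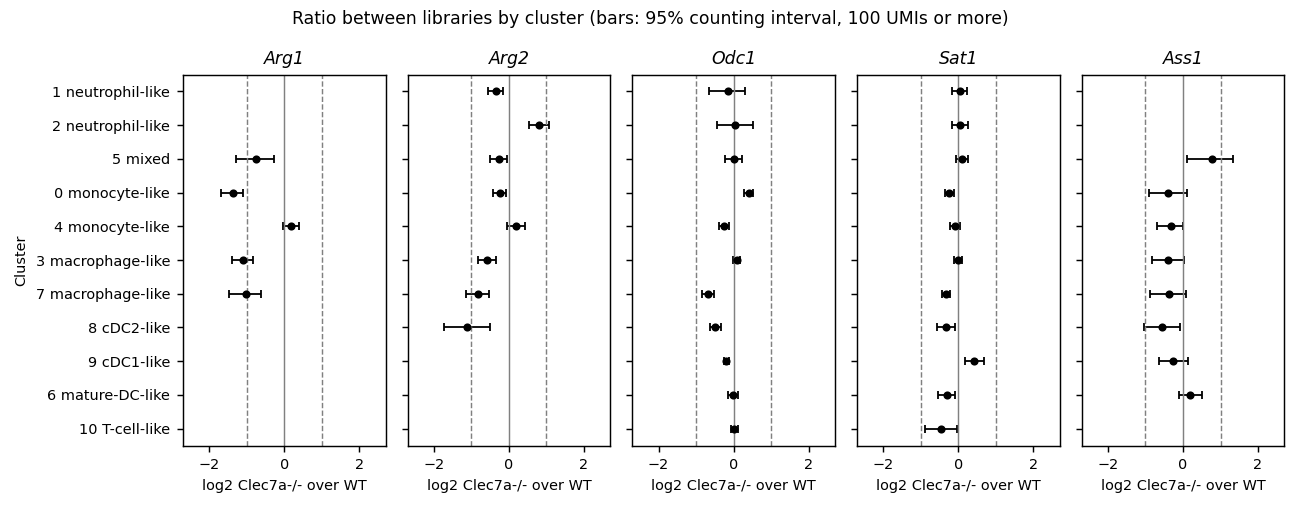
Log2 ratio of *Clec7a*-/- over WT (horizontal axis) in each cluster (vertical axis) for *Arg1*, *Arg2*, *Odc1*, *Sat1* and *Ass1*, with the 95% counting interval as bars, wherever a gene had 100 UMIs or more over both libraries. Dashed lines mark 2-fold. *Arg1* lies between -1.38 and -0.74 in 4 clusters and at 0.18 in cluster 4, and *Arg2* lies at 0.80 in cluster 2 and below 0 in most others.

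RNA set free from broken cells can place neutrophil transcripts in other cells, so *Arg2* was set beside *S100a9* in each cluster. This comparison was chosen after the levels had been seen. Neutrophil-like cluster 1 had 8.87 *Arg2* UMIs per 100 *S100a9* UMIs in WT and 7.48 in *Clec7a*-/- cells. The T-cell-like cells had 11.2 and 14.1, and the DC-like class had 16.0 and 23.0. The monocyte-like class had 96.0 and 113, and the macrophage-like class had 64.2 and 102. The ratio was thus higher in monocyte-like and macrophage-like cells than in the other classes, and in DC-like and T-cell-like cells it was above that of cluster 1. Over all cells of a library it was 14.6 in WT and 21.7 in *Clec7a*-/- cells, near the DC-like values and above the T-cell-like ones. The source of the *Arg2* UMIs was not tested. In the DC-like class *S100a9* itself was at 385 CPM in WT and 119 CPM in *Clec7a*-/- cells. The summed level of all 14 neutrophil markers in that class was 2635 CPM in WT and 1980 CPM in *Clec7a*-/- cells, with no marker at 0. The lower *Arg2* of the *Clec7a*-/- DC-like cells, at a log2 ratio of -1.17 (-1.61 to -0.75), thus came with lower *S100a9*, and it ran from -1.78 to -0.51 under the other settings. The part of free RNA in it was not tested. The share of DC-like cells with an *Arg2* UMI at equal depth (5.04% and 1.88%) lay below that of the T-cell-like cells (16.1% and 7.78%), with median depths of 4622 and 4419 UMIs against 2284.5 and 1817.5.

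**Figure D3:**
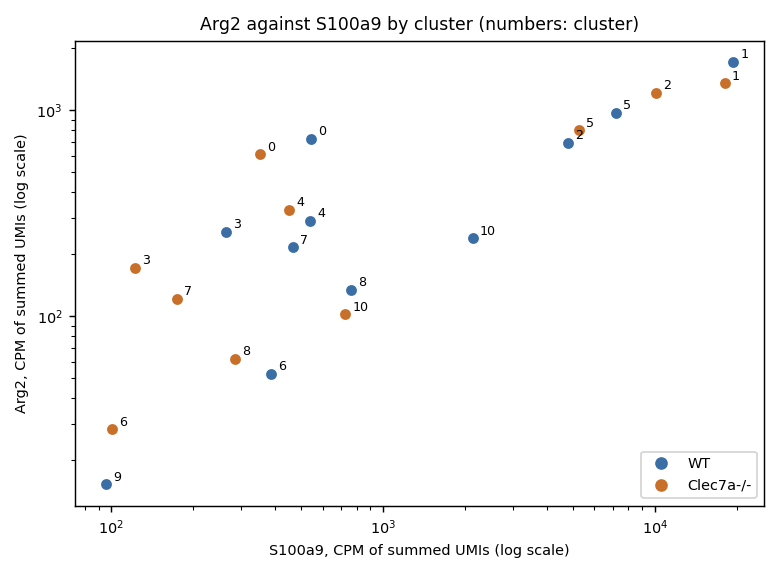
*Arg2* against *S100a9*, both in CPM of summed UMIs on log scales, for each cluster (number) and library (color) with at least 10 *Arg2* UMIs and 30 cells in each library. Clusters 1, 2 and 5 lie at the upper right. Within each library, monocyte-like and macrophage-like clusters 0, 4, 3 and 7 lie higher in *Arg2* than DC-like clusters 6 and 8, whose *S100a9* is of the same order. DC-like cluster 9, drawn for WT only, lies lower in *S100a9*, at 96.2 CPM.

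*Nos2*, the enzyme that competes with the arginases for arginine, was sparse, with 108 UMIs in 57 WT cells and 43 UMIs in 19 *Clec7a*-/- cells. Its level was 25.1 CPM (18.2 to 33.6) in WT and 16.6 CPM (7.19 to 32.8) in *Clec7a*-/- neutrophil-like cells, from 44 and 8 UMIs. The log2 ratio there was -0.52 (-1.89 to 0.51) and turned to 0.55 with cluster 2 left out, so it gave no direction. In the monocyte-like class it was 15.1 CPM (10.5 to 21.0) in WT and 2.02 CPM (0.417 to 5.92) in *Clec7a*-/- cells, from 35 and 3 UMIs. In the macrophage-like class the order was the other way round, 3.02 CPM (1.61 to 5.17) in WT and 12.0 CPM (7.69 to 17.9) in *Clec7a*-/- cells, from 13 and 24 UMIs. In both of these classes the intervals were apart, but few cells set the values. *Nos2* UMIs were found in 18 WT and 3 *Clec7a*-/- monocyte-like cells and in 8 and 9 macrophage-like cells, and single cells of the libraries held up to 9 and 6. *Nos2* had 0 UMIs in 363 WT and 566 *Clec7a*-/- DC-like cells, which allows at most 0.826% and 0.530% of cells with a UMI. Its cofactor pathway was better covered. *Gch1*, which starts the making of tetrahydrobiopterin, the cofactor of nitric oxide synthases, had 176 CPM in WT and 155 CPM in *Clec7a*-/- monocyte-like cells, a log2 ratio of -0.18 (-0.42 to 0.05).

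*Slc7a2*, the arginine carrier, was a gene of the macrophage-like class, which held 78.4% of its UMIs in WT and 75.9% in *Clec7a*-/- cells. The levels were 33.7 CPM (28.4 to 39.7) in WT and 31.5 CPM (24.2 to 40.3) in *Clec7a*-/- cells, and the log2 ratio was -0.09 (-0.55 to 0.34). Within the class, cluster 7, led by *Igf1* and *Colec12*, had 46.5 and 49.4 CPM and cluster 3, led by *C6* and *Ccl8*, had 20.1 and 16.5 CPM. *Slc7a2* and *Arg1* thus differed in place, since *Arg1* was higher in cluster 3 than in cluster 7 in both libraries. The related carrier *Slc7a1* had 5 UMIs in neutrophil-like cells. It was higher in DC-like cells (59.4 CPM in WT and 80.3 CPM in *Clec7a*-/-) than in macrophage-like cells (24.6 and 23.0 CPM).

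*Ass1* was nearly absent from neutrophil-like cells, with 7 WT and 3 *Clec7a*-/- UMIs. It was highest in the DC-like class, at 169 CPM (151 to 189) in WT and 159 CPM (144 to 174) in *Clec7a*-/- cells, which do not differ beyond counting error. The monocyte-like class had 131 and 107 CPM and the macrophage-like class 74.4 and 57.0 CPM, with log2 ratios of -0.29 (-0.58 to -0.01) and -0.38 (-0.70 to -0.07). Within the DC-like class mature-DC-like cluster 6 had most, 194 CPM in WT and 221 CPM in *Clec7a*-/- cells. The neutrophil-like cells, which had most *Arg2* and *Nos2*, thus had least *Ass1*. *Ass1* was seen at equal depth in 8.93% of WT and 7.78% of *Clec7a*-/- T-cell-like cells, and in 11.6% and 11.8% of DC-like cells.

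*Odc1*, the entry to polyamines, was found in every class and was highest outside them, in the T-cell-like cells. There it was at 8070 CPM (7654 to 8502) in WT and 8193 CPM (7831 to 8568) in *Clec7a*-/- cells, and at equal depth 94.6% of 56 and 91.1% of 90 cells had a UMI. The DC-like class followed with 2464 CPM in WT and 2235 CPM in *Clec7a*-/- cells. In that class the cDC1-like cluster 9, led by *Clec9a*, *Itgae* and *Xcr1*, had 4254 CPM (4098 to 4415) and 3710 CPM (3599 to 3823), the cDC2-like cluster 8 had 1885 and 1346 CPM, and the mature-DC-like cluster 6 had 1202 and 1185 CPM. cDC1 and cDC2 are the 2 lineages of conventional DCs, and mature DCs carry antigen to lymph nodes. Cluster 9 had 5 of 8 cDC1 markers raised but also 5 of 9 cDC2 markers, so its name does not exclude cDC2 cells. The neutrophil-like class had least, 286 and 273 CPM.

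Between libraries *Odc1* differed in direction from cluster to cluster. It was higher in *Clec7a*-/- cells in monocyte-like cluster 0, with 912 CPM in WT and 1200 CPM in *Clec7a*-/- cells, and the log2 ratio was 0.40 (0.26 to 0.53). It was lower in *Clec7a*-/- cells in monocyte-like cluster 4, at -0.26 (-0.39 to -0.13), and in macrophage-like cluster 7, with 737 and 461 CPM, at -0.68 (-0.83 to -0.52). The cDC2-like and cDC1-like clusters had ratios of -0.49 and -0.20. In cluster 0 the arginase *Arg1* was lower in *Clec7a*-/- cells where *Odc1* was higher, and in cluster 7 both were lower. In the monocyte-like class these ratios largely cancelled, at 0.06 (-0.03 to 0.16). The macrophage-like class was at -0.06 (-0.14 to 0.01), although neither of its clusters was higher in *Clec7a*-/- cells beyond counting error. Cluster 3 held 57.6% of the WT and 64.4% of the *Clec7a*-/- cells of that class. The part of this makeup in the class ratio was not tested.

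*Sat1*, which acts at the other end of the polyamine path, had the smallest ratio of its highest class to other cells among the 10 genes. Its levels were 1541 CPM in WT and 1456 CPM in *Clec7a*-/- neutrophil-like cells, 1272 and 1103 CPM in monocyte-like cells, 1197 and 1061 CPM in macrophage-like cells, and 425 and 390 CPM in DC-like cells. All 4 ratios were small, from -0.21 in the monocyte-like class to -0.08 in the neutrophil-like class. The cDC1-like cluster was the only one where the interval of the ratio lay above 0, with 284 CPM (245 to 328) in WT and 383 CPM (348 to 421) in *Clec7a*-/- cells. Of the 4 classes, the neutrophil-like cells thus had least *Odc1* and most *Sat1*, and the DC-like cells most *Odc1* and least *Sat1*.

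**Figure D4:**
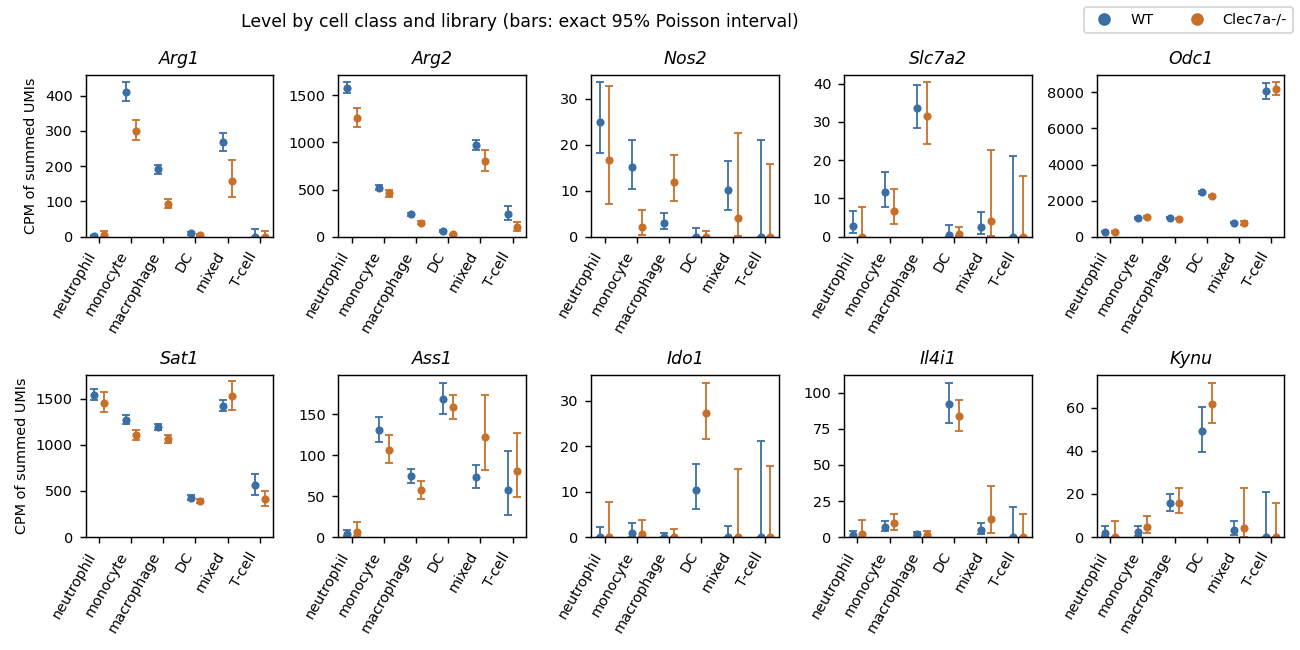
Level of each gene in CPM of summed UMIs (vertical axes, starting at 0) in the 4 classes, the mixed cluster and the T-cell-like cells (horizontal axes), in WT (blue) and *Clec7a*-/- (orange) cells. Bars are exact 95% Poisson intervals and cover counting error only. The intervals of the 2 libraries are apart for *Arg1* in monocyte-like and macrophage-like cells and for *Ido1* in DC-like cells, and overlap for *Il4i1* and *Kynu* in DC-like cells.

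The 3 genes of tryptophan breakdown were genes of DC-like cells. *Ido1* had only 21 UMIs in WT and 78 in *Clec7a*-/- cells, of which 19 and 77 were in DC-like cells. Its level in that class was 10.3 CPM (6.18 to 16.0) in WT and 27.2 CPM (21.5 to 34.0) in *Clec7a*-/- cells, and the log2 ratio was 1.38 (0.67 to 2.22), and the intervals did not overlap. The cDC1-like cluster had 15.3 CPM (10 UMIs) in WT and 36.0 CPM (41 UMIs) in *Clec7a*-/- cells, and the mature-DC-like cluster had 12.8 CPM (9 UMIs) and 32.0 CPM (35 UMIs). The cDC2-like cluster had next to none, so *Ido1* was carried by 2 of the 3 DC-like clusters in both libraries. Without thinning, 12 of 363 WT and 41 of 566 *Clec7a*-/- DC-like cells had an *Ido1* UMI (3.31%, 1.72 to 5.70, and 7.24%, 5.25 to 9.70). The shares depended on the depth. Thinned to 1000 UMIs they were 1 of 337 and 15 of 533 cells (0.297% and 2.81%), and thinned to 2000 they were 6 of 286 and 14 of 465 cells, with overlapping intervals (0.774% to 4.51% and 1.66% to 5.00%). No T-cell-like cell had one in either library.

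The intervals of the ratios of *Il4i1* and *Kynu* in DC-like cells held 0, and whether they differ from that of *Ido1* was not tested. *Il4i1* was at 92.3 CPM (79.0 to 107) in WT and 83.9 CPM (73.5 to 95.3) in *Clec7a*-/- DC-like cells, a log2 ratio of -0.14 (-0.43 to 0.15). Its highest level was in the mature-DC-like cluster, 144 and 134 CPM, followed by the cDC2-like cluster with 72.5 and 67.3 CPM and the cDC1-like cluster with 51.9 and 43.9 CPM. *Il4i1* overlaps *Nup62* on the same strand, and reads shared by both could not be told apart. *Kynu* was at 49.1 CPM (39.6 to 60.3) in WT and 61.9 CPM (53.1 to 71.8) in *Clec7a*-/- DC-like cells, a log2 ratio of 0.33 (-0.04 to 0.72). It had 78.4 and 75.9 CPM in the mature-DC-like cluster and 38.2 and 62.4 CPM in the cDC1-like cluster. *Kynu* was also present in macrophage-like cells, at 15.8 and 16.0 CPM, where *Ido1* had 0 UMIs. In the same cells at equal depth, *Il4i1* and *Kynu* were met together in 2 of 337 WT and 2 of 533 *Clec7a*-/- DC-like cells, where the product of their shares gives 2.52 and 2.42 cells.

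The genes whose levels over clusters were most like a member are given as a description over 22 points, the 11 larger clusters in each library. They were sought among 8470 genes with 100 UMIs or more, and *Ido1*, below 100 UMIs, was left out. The points share libraries and differ in depth. *Arg1* was most like *Fn1* (Pearson's r = 0.967), which encodes fibronectin, *Rai14* and *Tfec*. *Arg2* was most like *Clec4d* (r = 0.985), which encodes a C-type lectin receptor, *Ets2* and *Ier3*. *Slc7a2* was most like *Trem2* (r = 0.949), a lipid receptor of tissue macrophages, and *Lpl*, which encodes lipoprotein lipase. *Il4i1* was most like *Serpinb9b* (r = 0.969) and *Ccl22*, a chemokine of mature DCs. The closest genes of *Odc1*, *Sat1*, *Ass1* and *Kynu* were *Lsm2* (r = 0.956), *Igsf6* (0.980), *Got1* (0.949) and *Pkib* (0.946). *Nos2* had the weakest match, *Pfkfb4* (r = 0.804). Among the 10 genes, *Arg2* and *Sat1* had r = 0.91 and *Il4i1* and *Kynu* r = 0.84, whereas the 2 arginases had r = 0.33.

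Over all kept cells summed, *Arg1* was at 181 CPM in WT and 91.1 CPM in *Clec7a*-/- cells, and the log2 ratio was -0.99 (-1.11 to -0.86). *Arg2* was at 547 and 254 CPM, at -1.11 (-1.18 to -1.03). *Il4i1* was at 16.8 and 34.1 CPM, at 1.02 (0.76 to 1.30), and *Kynu* at 14.2 and 29.0 CPM, at 1.03 (0.74 to 1.33). *Ido1* was at 1.71 and 10.3 CPM, at 2.57 (1.88 to 3.36). The arginases were thus lower and the tryptophan genes higher in *Clec7a*-/- cells as a whole. Of the rest, *Nos2*, *Slc7a2* and *Sat1* were lower (-0.62, -0.45 and -0.46) and *Odc1* and *Ass1* higher (0.43 and 0.25). Scaling by trimmed means of M-values (TMM) moved all these ratios by -0.17 and turned no sign, but placed *Arg1* past 2-fold and *Il4i1* and *Kynu* within it.

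Of the 9 genes with 100 UMIs or more over all cells, 3 were past 2-fold, *Arg2* in one direction and *Il4i1* and *Kynu* in the other, against 4.13% of the 8470 genes counted. *Ido1* had 99 UMIs and was not counted, and *Arg1* lay just inside 2-fold. In the neutrophil-like class 0 of 3 counted members were past 2-fold, against 4.17% of all genes counted there. In the monocyte-like class this was 0 of 5 against 0.915%. In the macrophage-like class it was 1 of 7, *Arg1*, against 0.845%, and in the DC-like class 1 of 6, *Arg2*, against 1.21%. The median log2 ratio of the counted members was -0.45 over all cells, -0.08 in neutrophil-like, -0.21 in monocyte-like, -0.17 in macrophage-like and -0.13 in DC-like cells. The medians of all genes counted were 0.13, -0.01, 0.03, -0.01 and 0.02.

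To see how much of the pooled values went with the makeup of the libraries, the *Clec7a*-/- level of each cluster was weighted by the cluster's share of UMIs in the WT library. The log2 ratio of *Il4i1* then moved from 1.03 to -0.02, that of *Kynu* from 1.03 to 0.21, that of *Arg2* from -1.11 to -0.30 and that of *Odc1* from 0.43 to -0.11. *Arg1* kept most of its ratio, -0.75 in place of -0.99, and *Ido1* kept 1.20 of 2.59 (here without a pseudocount). The lower *Arg1* and the higher *Ido1* were thus also found within clusters, while the ratio of *Il4i1* was near 0 and those of *Odc1* and *Ass1* turned sign. That of *Nos2* moved from -0.63 to 0.22, but these weighted ratios have no interval. *Nos2* had 43 UMIs in 19 *Clec7a*-/- cells, with a UMI in 3 of 83 cells in cluster 1, so it gave no direction.

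**Figure D5:**
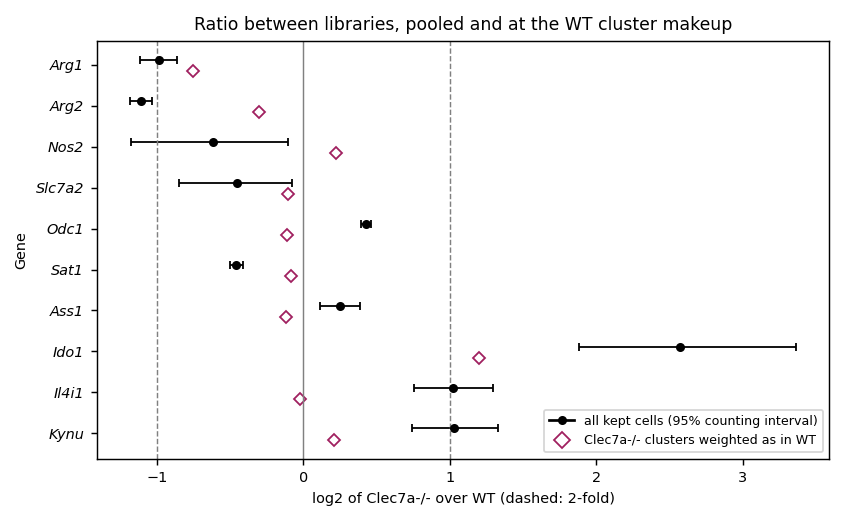
Log2 ratio of *Clec7a*-/- over WT (horizontal axis) for each gene (vertical axis), over all kept cells (black, with 95% counting intervals) and with the clusters of the *Clec7a*-/- library weighted as in the WT library (open diamonds, no interval). Dashed lines mark 2-fold. The diamonds lie near 0 for *Il4i1*, *Odc1*, *Sat1*, *Ass1* and *Slc7a2*, at -0.75 for *Arg1* and at 1.20 for *Ido1*.

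Of 55 other genes of arginine, polyamine and tryptophan use, 32 had 100 UMIs or more and 3 were past 2-fold over all cells, against the same 4.13%. These were *Afmid*, *Tph1* and *Ahrr*, all from the tryptophan list (3 of 10 counted), while 0 of 11 counted arginine and nitric oxide genes and 0 of 11 counted polyamine genes were. *Afmid*, which encodes the formamidase that follows IDO1 on the way to kynurenine, had 7.65 CPM in WT and 17.3 CPM in *Clec7a*-/- cells, and the log2 ratio was 1.18 (0.79 to 1.58). In DC-like cells it had 16.7 CPM (11.4 to 23.8) and 33.3 CPM (26.9 to 40.7), a ratio of 0.98 (0.39 to 1.63). It was thus in the class of *Ido1* and went the same way, but its highest cluster was another. *Afmid* peaked in the cDC2-like cluster 8, at 39.4 CPM against 9.71 CPM in the other cells, where *Ido1* had next to none. *Ahrr*, which encodes the repressor of the aryl hydrocarbon receptor and is a target of it, had 7.41 CPM in WT and 15.6 CPM in *Clec7a*-/- cells, and 14.0 and 24.1 CPM in DC-like cells, a ratio of 0.76 (0.11 to 1.49). The receptor gene *Ahr* itself had 110 CPM in WT and 91.3 CPM in *Clec7a*-/- DC-like cells, a ratio of -0.26 (-0.53 to 0.01). *Tph1*, which sends tryptophan to serotonin, had 182 UMIs in WT and 11 in *Clec7a*-/- cells, of which 176 and 11 lay in the mast-cell-like cluster of 16 and 5 cells. *Cps1*, *Gchfr*, *Tdo2*, *Acmsd* and *Aadat* had 0 UMIs in both libraries.

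Within the classes 1 of the other pathway genes was past 2-fold, *Slc7a5* in the neutrophil-like class (1 of 11 counted, against 4.17%). *Slc7a5* encodes a carrier that takes up tryptophan and other large amino acids. It was at 43.8 CPM (34.6 to 54.8) in WT and 112 CPM (84.4 to 147) in *Clec7a*-/- cells, and the log2 ratio was 1.36 (0.83 to 1.88), and it was higher in *Clec7a*-/- cells both in cluster 1 (41.6 and 129 CPM) and in cluster 2 (57.6 and 104 CPM). Of the 4 classes, the macrophage-like class had most *Gatm*, which uses arginine to make the precursor of creatine. Its level there was 265 CPM in WT and 223 CPM in *Clec7a*-/- cells, a ratio of -0.25 (-0.41 to -0.09). Outside the 4 classes, with both libraries together, *Gatm* was higher in the unnamed cluster 11 (549 CPM) and *Slc7a5* in the mast-cell-like cluster (744 CPM).

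On GRCm38 the genes lie apart from each other for the most part. *Arg1* lies on the minus strand of chromosome 10 (24915221 to 24927484) and *Arg2* on the plus strand of chromosome 12 (79130777 to 79156301), where it overlaps *Vti1b* on the other strand. *Odc1* lies on the plus strand of chromosome 12 (17544794 to 17551505), *Nos2* on the plus strand of chromosome 11 (78920787 to 78960254) and *Sat1* on the minus strand of the X chromosome (155213132 to 155216449). *Ido1* (24584136 to 24597009, minus strand) and *Slc7a2* (40862396 to 40922308, plus strand) lie on chromosome 8. *Ass1* (31470207 to 31520672) and *Kynu* (43555329 to 43682715) lie on the plus strand of chromosome 2, and *Il4i1* on the plus strand of chromosome 7 (44816387 to 44840809). None of the 10 lies on chromosome 6, which holds *Clec7a*.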

How the data were processed

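Single-cell RNA-seq libraries of sorted polyp myeloid cells were made with the SeekOne MM 3′ kit, 5 WT mice and 4 *Clec7a*-/- mice being pooled, whereas the labels' description names another platform. The values the authors deposited are raw UMI counts, whole numbers by gene and barcode, 1 matrix per library. The submitters' processing notes name mm10 and Cell Ranger 2.1.1. Of 32285 gene identifiers, 32235 were found in GENCODE M21 (GRCm38), which gave the positions. Barcodes outside 200 to 4000 detected genes or over 5% mitochondrial UMIs (729 WT and 1057 *Clec7a*-/-) were dropped. No doublets were removed.

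Cells were clustered with Seurat 5.3.0 in R 4.3.3 (LogNormalize, 2000 variable features less the 10 genes and the pathway lists, 1987 used, 20 components, Louvain resolution 0.8). A cluster was named from the marker list with the largest share at least 2-fold over the other cells, with at least 3 markers of 10 UMIs or more, and called mixed where another class reached 40% of its list. Summed UMIs were given as CPM with exact Poisson intervals. Log2 ratios of *Clec7a*-/- over WT used a pseudocount of 0.5 UMI and exact conditional intervals. Genes with 100 UMIs or more over both libraries were counted, and past 2-fold meant a log2 ratio of at least 1 in size. A count of 0 allows up to 3 counts. Shares have exact binomial (Clopper-Pearson) intervals. The ratios were tried on simulated counts with 200 changed genes. These counts were drawn with counting error only, as the intervals assume, so the trial cannot show how the intervals hold with variation between cells or mice.

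The 10 genes, the pathway and marker lists and the comparisons were chosen with earlier results of these data known. All 10 genes are named, and of the pathway lists those past 2-fold or over 4-fold in 1 cluster against the rest. Some of these are named only here. *Spr* was at 4.02 times the other cells in DC-like cluster 6, and *Atp13a2* at 4.60 times in macrophage-like cluster 7. In the mast-cell-like cluster *Aldh18a1*, *Srm* and *Wars* were at 7.49, 6.02 and 5.19 times, from 6, 4 and 3 UMIs. Alternatives were other filters, doublet removal with Scrublet (scanpy 1.11.5), other clusterings, TMM scaling (edgeR 4.0.16), a mean over cells, other pseudocounts, minimums and folds.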

Additional observations from a re-analysis of the deposited data

Results flagged for a closer look

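For 4 of the 10 genes the log2 ratio of *Clec7a*-/- over WT went opposite ways in different clusters, each beyond its own counting interval. The differences between clusters were not tested, since each ratio rests on 1 library per genotype.

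*Arg2* was higher in *Clec7a*-/- cells in 1 of 8 counted clusters, the shallow neutrophil-like cluster 2 (0.80), and lower in 6, most in the cDC2-like cluster 8 (-1.11). *Odc1* was higher in 1 of 12, monocyte-like cluster 0 (0.40), and lower in 5, most in cluster 11 (-1.63), an unnamed group of 13 WT and 21 *Clec7a*-/- cells with raised proliferation genes. *Sat1* was higher in 1 of 13, the cDC1-like cluster 9 (0.43), and lower in 5, most in the T-cell-like cluster 10 (-0.47). *Ass1* was higher in 1 of 8, the mixed cluster 5 (0.76, from 30 *Clec7a*-/- UMIs), and lower in 1, the cDC2-like cluster 8 (-0.55).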

How the results depend on the processing

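Over all cells 3 members were past 2-fold; the count was 5 with a limit of 10% mitochondrial UMIs and with no filter on cells (*Arg1* and *Ido1* added), 5 at 1.5-fold, and 2 to 4 otherwise. The neutrophil-like class had 0 in every setting run. The monocyte-like class had 1 with a minimum of 20 UMIs (*Nos2*) and 0 otherwise. The macrophage-like class had 1 (*Arg1*), but 0 with no filter, with the highest Scrublet scores removed, with 10 components and with a resolution higher by 0.4, and 2 with a minimum of 20 UMIs and at 1.5-fold. The DC-like class had 1, but 0 with 500 to 6000 genes, with Scrublet scores removed, with all variable features, with 10 components and as a mean over cells, and 3 with a minimum of 20 UMIs. Of the other pathway genes 3 were past 2-fold, 5 at 10% mitochondrial UMIs and with no filter, and 8 with a minimum of 20 UMIs and at 1.5-fold. The causes were not tested. Leaving out shared barcodes or cluster 2, chosen after seeing the data, changed no count by over 1.5 times. Of 569 alternative log2 ratios 41 moved beyond the counting interval, as did 32 of 140 ratios of a class over other cells and 130 of 200 shares of cells. The *Arg1* ratio over all cells ran from -1.17 to -0.95, the *Arg2* ratio from -1.37 to -0.61 and the *Ido1* ratio in DC-like cells from 1.16 to 1.46. The *Odc1* ratio in monocyte-like cells kept its sign in 6 of 15. Scrublet marked 2 WT and 8 *Clec7a*-/- cells, too few to take as working, so 135 and 100 cells with the highest scores were removed instead. *Ido1* and *Nos2*, with 99 and 151 UMIs in all, are limited by depth. No paired analysis was possible because there was 1 library per genotype, and for the same reason none could be left out.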

Other observations

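Some values lay outside the 4 classes. In the epithelial-like cluster *Nos2* had 0 UMIs in 17 WT cells and 7 UMIs in 12 *Clec7a*-/- cells, and *Sat1* was at 2192 CPM in WT and 2658 CPM in *Clec7a*-/- cells. The T-cell-like cells, led by *Il17a*, *Tcrg-C1*, *Trdc* and *Foxp3*, had 0 UMIs of *Arg1*, *Nos2*, *Slc7a2*, *Ido1*, *Il4i1* and *Kynu* in both libraries.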
